A study of Mus musculus domesticus with 6 samples.

Results

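Lymphoid priming genes are genes of the B and T cell programmes whose RNA is already present at low level in early blood progenitors. The 10 genes described here are Flt3, Il7r, Ighm, Satb1, Dntt, Rag1, Rag2, Igll1, Tcf7 and Ebf1, among 55359 genes in the deposited tables. They were matched by symbol, and they were chosen by lineage and with the Cre-positive against Cre-negative levels already known, so their values in that contrast are given as a description. Where calls among them are counted, the share of all genes called stands beside the count and nothing is read from it. Reads were found for 8 of the 10. RNA came from burst-forming erythroid progenitors (BFU-E, an early committed stage of red cell formation) of mouse fetal livers at E14.5 (days of embryonic development). Every embryo in both groups was labelled Exosc3 fl/fl, and the strain label names Exosc3-floxed and Vav1-Cre for all samples. The 3 Cre-negative samples serve as controls and the other 3 are Cre-positive. Exosc3 encodes a subunit of the RNA exosome, which degrades and trims RNA, and Vav1-Cre is a recombinase transgene active in blood cells from the stem cell stage on. The labels describe 1 sort for all samples, for GFP-positive, lineage-negative, Kit-positive cells low for CD24 and CD71, while eGFP reads were near 0 in the Cre-negative libraries. The design text gives 3 litters with 2 samples each. The comparison asks how BFU-E RNA differs when Exosc3 can be recombined in blood cells.

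In the fetal liver, multipotent progenitors that carry the cytokine receptor FLT3 can still enter the lymphoid lineages, and those that gain the interleukin 7 receptor become lymphoid progenitors. RAG1 and RAG2 then cut the antigen receptor genes, terminal transferase (Dntt) adds bases at the joins, and the first immunoglobulin heavy chain (Ighm) is tested on the cell surface with a surrogate light chain that includes the Igll1 product. The factors SATB1, TCF7 and EBF1 act around these steps. Erythroid commitment normally closes this programme.

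The libraries held 89629949 to 124931215 expected counts. No molecular identifiers are described, so limits given for a count of 0 cover read counting only. The 2095 genes seen in a single library had a median of 108 reads there, with quartiles of 45 and 187, and that median serves here as a yardstick for low values. Exosc3 was at 54.8% of the mean Cre-negative level in Cre-positive libraries (26.4 ± 4.07 against 48.1 ± 3.80 CPM, SD, n = 3 each), without overlap between the groups. Adjusted over all genes its p was 0.259 by edgeR and 0.00325 by DESeq2. A reporter listed as eGFP averaged 37.7 ± 1.45 against 0.844 ± 0.798 CPM, also without overlap. Each of the 15 erythroid markers looked up had reads in some library, though Hbb-bt and Alas2 had 0 in every Cre-negative one. The deposited TPM of Gata1, the main erythroid transcription factor, was 61.6 to 91.3 over the 6 libraries, and that of its partner Klf1 was 208 to 305.

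As a group, the 10 genes were lower in every Cre-positive library than in any Cre-negative library. Their summed TPM (a level scaled to transcript length and to a fixed total, which allows genes to be added and compared) was 75.9, 62.0 and 145.7 in Cre-negative replicates 1, 2 and 3. It was 10.97, 16.8 and 17.1 in the 3 Cre-positive libraries in the same order. The means were 94.5 ± 44.9 and 14.9 ± 3.44 TPM (SD, n = 3 each), a ratio of 6.33. The number of genes with reads overlapped between the groups, at 8, 6 and 8 of the 10 in the Cre-negative libraries and 4, 6 and 5 in the Cre-positive ones. In these bulk samples, fewer cells carrying such RNA and less of it per cell cannot be told apart.

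**Figure D1:**
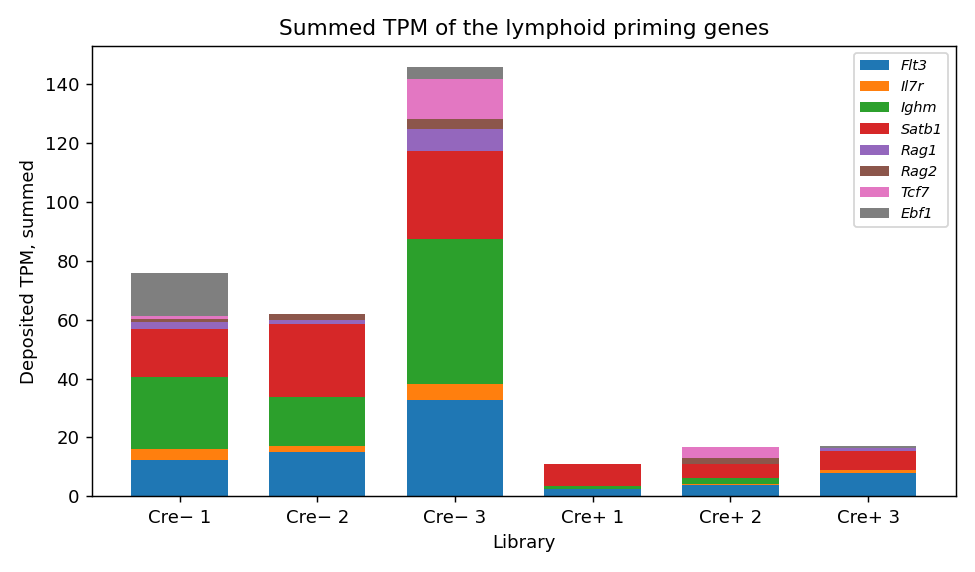
Stacked deposited TPM of the 8 genes with reads (vertical axis) in each of the 6 libraries (horizontal axis). Every Cre-negative bar, from 62.0 to 145.7, stands above every Cre-positive bar, from 10.97 to 17.1.

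The order of levels also differed between the groups. By mean TPM in Cre-negative libraries, Ighm stood first (30.1 ± 17.0), then Satb1 (23.7 ± 6.82) and Flt3 (20.0 ± 11.03). The gaps between these 3 neighbours were smaller than the SD of either. Ebf1 (6.27 ± 7.67), Tcf7 (4.86 ± 7.58), Rag1 (3.79 ± 3.32), Il7r (3.79 ± 1.64) and Rag2 (2.09 ± 1.24) followed. Flt3 and Ebf1 were farther apart than the SD of either, as were Il7r and Rag2 by a small margin, and the other gaps were within the spreads. In Cre-positive libraries Satb1 (6.34 ± 1.46) and Flt3 (4.65 ± 2.90) led, and every other gene averaged 1.22 TPM or less. Ighm made up 32.3%, 26.7% and 33.7% of the Cre-negative sums and 6.56%, 11.7% and 0% of the Cre-positive sums. Satb1 took 69.8%, 28.4% and 38.6% of the Cre-positive sums.

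**Figure D2:**
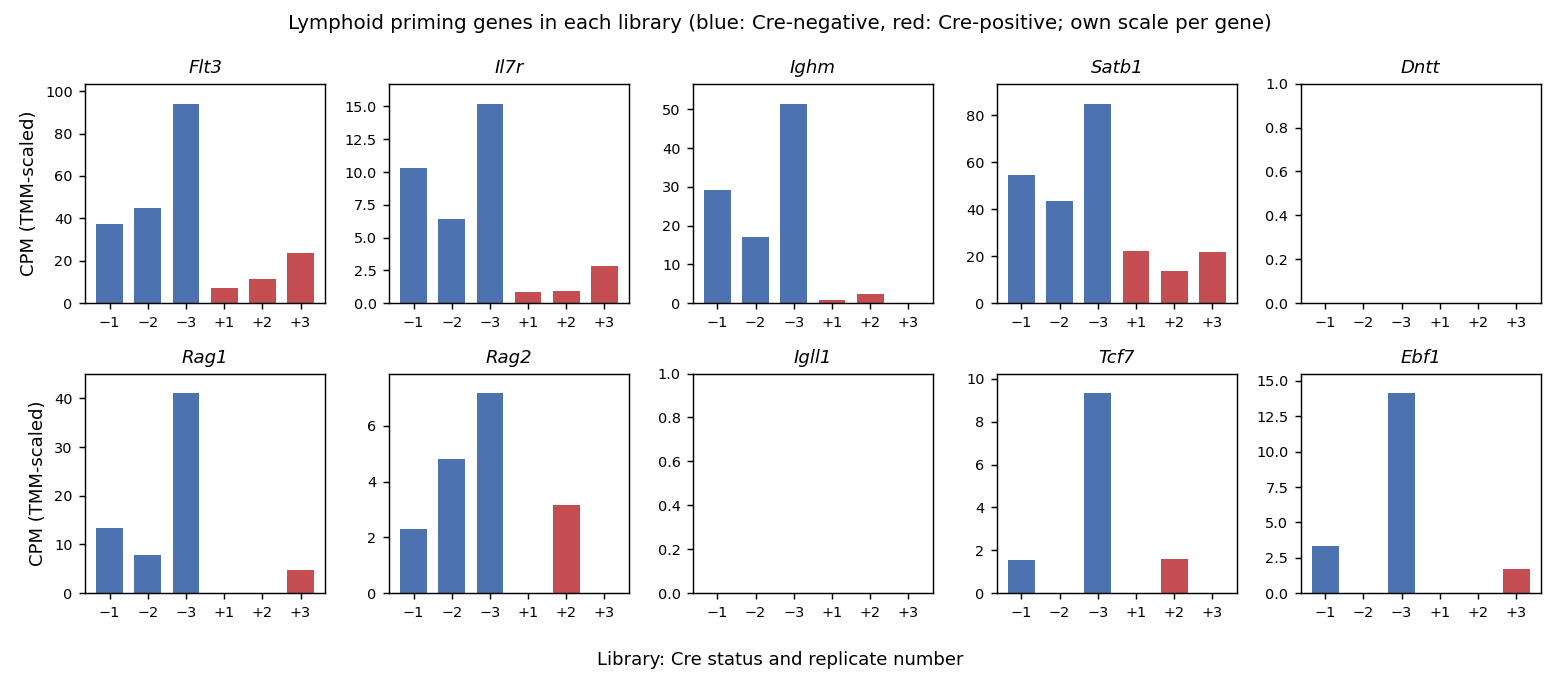
CPM (vertical axis, own scale per gene, from 0) of each gene in the 6 libraries (horizontal axis), Cre-negative in blue and Cre-positive in red. Replicate 3 is the highest Cre-negative library for all 8 genes with reads, and Dntt and Igll1 have none.

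The receptors came first in the lineage and were seen in all 6 libraries. Flt3, the receptor tyrosine kinase of multipotent and early lymphoid progenitors, had 3587, 4688 and 11691 reads against 874, 992 and 2732, with Cre-negative replicates 1 to 3 given first here and below. Scaled to library size this was 37.3, 44.7 and 94.1 CPM (reads relative to the TMM-adjusted library total) against 7.04, 11.2 and 23.7 CPM. The groups did not overlap, and replicate 3 was the highest in both. The log2 fold change in CPM, -2.07 (SE 0.49), became -2.69 without Cre-positive replicate 3. Set side by side by replicate number, which no label gives as a pair, the Cre-positive level was 18.9%, 25.1% and 25.2% of the Cre-negative one. Such values scattered more for Il7r (7.96%, 15.0% and 18.8%), Ighm (2.64%, 14.1% and 0%) and Rag2 (0%, 65.6% and 0%).

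Il7r, the interleukin 7 receptor alpha chain that sustains lymphoid progenitors, had 993, 671 and 1890 reads against 102, 85 and 329. That was 10.3, 6.40 and 15.2 CPM against 0.821, 0.961 and 2.85 CPM, again without overlap. Cre-positive replicates 1 and 2 held 0.944 and 0.787 times the 108 reads of the yardstick. The log2 fold change of -2.78 (SE 0.82) became -3.58 without Cre-positive replicate 3.

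Genes that signal with these receptors went both ways. Of 17 ligands, receptor chains, kinases and targets looked up, 14 were tested and 0 passed over all genes by edgeR or limma-voom, while 1 was lower at an unadjusted p under 0.05 and 1 higher. Their median log2 fold change was 0.01, against -0.01 over all genes tested. At an unadjusted p under 0.05, 4.19% of all genes were lower and 4.05% higher, the shares for the lists below as well. Of all 13117 genes tested, 6658 had a negative log2 fold change, and DESeq2 called 1.68% of all genes lower. Il2rg, the common gamma chain that pairs with the interleukin 7 receptor, had 37.4 ± 9.28 against 25.5 ± 2.72 CPM (SD, n = 3; adjusted p = 0.657, edgeR). Stat5b, a transcription factor activated by such receptors, was higher without overlap, at 120 ± 1.57 against 146 ± 12.02 CPM (adjusted p = 0.527, edgeR). Bcl2, the survival gene downstream of interleukin 7, was at 25.03 ± 5.72 against 9.32 ± 4.15 CPM without overlap (adjusted p = 0.314, edgeR), and it was the 1 gene of the list that DESeq2 called (adjusted p = 0.0105; the other alternatives gave up to 0.605). The alternative ligand gene Tslp had 0 counts in every library.

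Ighm, the immunoglobulin mu heavy chain constant region, had the largest ratio of mean CPM between the groups among the 8 genes. It is transcribed from the unrearranged locus in early progenitors as well as from a joined gene in B cells, and a gene count does not separate these. It had 2818, 1799 and 6396 reads against 96, 214 and 0. The highest Cre-positive library, at 2.42 CPM, lay far below the lowest Cre-negative one, at 17.2 CPM. The means were 32.6 ± 17.4 and 1.06 ± 1.24 CPM (SD, n = 3 each), a ratio of 30.7. The log2 fold change of -4.95 (SE 1.304) moved to -6.39 without Cre-positive replicate 2 and to -4.36 without Cre-positive replicate 3.

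The tables list 2 Ighm transcripts, which end in different tails: Ighm-201 (1493 bases) carries the secreted tail and Ighm-202 (1698 bases) the membrane tail that anchors the protein at the cell surface. Their coding ends, from GENCODE release M21, are shown because the deposited lengths tell which form took the reads. They are written 5′ to 3′, with shared bases in lower case and the bases that differ between the forms, stop codon included, in capitals.
Ighm-201: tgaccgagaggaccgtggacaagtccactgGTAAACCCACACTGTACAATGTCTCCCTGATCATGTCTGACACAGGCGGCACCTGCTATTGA
Ighm-202: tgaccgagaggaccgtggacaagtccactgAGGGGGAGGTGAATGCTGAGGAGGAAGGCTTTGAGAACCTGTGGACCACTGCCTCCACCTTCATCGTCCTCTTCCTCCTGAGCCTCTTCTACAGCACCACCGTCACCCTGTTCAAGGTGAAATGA
The deposited mean transcript length equals that of the secreted form in Cre-negative replicate 2 and Cre-positive replicate 1 (1493 bases). It equals that of the membrane form in Cre-positive replicate 2 (1698 bases). In Cre-negative replicates 1 and 3 it lay between them, at 1669 and 1549 bases. Both forms were therefore assigned reads in the group with many reads, and a single form in each Cre-positive library with any, at 96 and 214 reads.

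Igll1, the surrogate light chain gene lambda 5, had 0 counts in all 6 libraries. A count of 0 allows up to 3 reads, or 0.0241 to 0.0339 CPM per library, for read counting error only. Its partners Vpreb1 and Vpreb3 also had 0 counts throughout, and the near-identical copy Vpreb2 had 473 reads in Cre-negative replicate 2 alone, an uncertain assignment. Cd79b, which encodes a signalling chain of the B cell receptor, had 579, 254 and 611 reads against 0, 118 and 147. Of the 12 genes looked up around the pre-B cell receptor, 6 were tested, all 6 had negative log2 fold changes (median -0.94), and 0 passed over all genes by edgeR or limma-voom. At an unadjusted p under 0.05, 3 were lower, beside 4.19% of all genes. Pik3ap1, an adaptor for phosphoinositide 3-kinase in B cells, was at 24.3 ± 3.43 against 7.96 ± 2.76 CPM without overlap (adjusted p = 0.225, edgeR). Plcg2 (151 ± 64.1 against 68.5 ± 29.1 CPM) and Syk (130 ± 36.5 against 77.6 ± 23.6 CPM), a lipase and a kinase of the same signalling route, overlapped between groups (adjusted p = 0.320 and 0.430, edgeR). DESeq2 called Pik3ap1 and Syk, beside 1.68% of all genes called lower.

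The recombinase genes each had reads in only 1 Cre-positive library. Rag1, the catalytic subunit, had 1282, 828 and 5095 reads against 0, 0 and 554. The groups did not overlap, with 13.3, 7.90 and 41.01 CPM above 0, 0 and 4.80 CPM. The log2 fold change of -3.69 (SE 1.89) was -2.72 without Cre-negative replicate 3, its highest library, -3.10 without Cre-positive replicate 1 and -3.11 without Cre-positive replicate 2. Without Cre-positive replicate 3 no Cre-positive reads are left, and the fitted value then depends on the prior count.

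Rag2, its essential partner, had 223, 504 and 890 reads against 0, 279 and 0. Its log2 fold change was -2.18 (SE 2.29), and -12.1 without Cre-positive replicate 2, where no Cre-positive reads are left and the fitted value depends on the prior count. Here the groups overlapped, since Cre-positive replicate 2 (3.15 CPM) exceeded Cre-negative replicate 1 (2.32 CPM). The library with Rag2 reads among the Cre-positive ones had no Rag1 reads, and the library with Rag1 reads had no Rag2 reads. Rag1 and Rag2 are neighbours, and both overlap the gene B230118H07Rik in the GENCODE M21 annotation, on the same strand for Rag1 and the opposite one for Rag2. That gene had 813 to 1525 reads in Cre-negative and 535 to 1226 in Cre-positive libraries. No source used here gives the strand setting of the counting, so reads shared between them are uncertain. Dntt, terminal transferase, had 0 counts in all 6 libraries.

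The repair proteins that finish V(D)J joining are made in all cells, and by median fold change their genes were not lower as a group. All 12 looked up were tested and 0 passed over all genes by edgeR, DESeq2 or limma-voom, with 1 lower and 1 higher at an unadjusted p under 0.05 and a median log2 fold change of 0.17. Hmgb1, a DNA-bending cofactor of the recombinase, was at 2263 ± 67.4 against 2030 ± 73.4 CPM without overlap (SD, n = 3; adjusted p = 0.502, edgeR). By summed TPM the list was lower without overlap, at 3776 to 4008 in Cre-negative and 3382 to 3701 in Cre-positive libraries. Of these sums, Hmgb1 alone averaged 2390 and 2125 TPM. Dclre1c, the Artemis nuclease that opens hairpin ends, was higher without overlap, at 26.0 ± 5.32 against 38.6 ± 6.19 CPM (adjusted p = 0.606, edgeR). Xrcc6, the Ku70 end-binding protein, was also higher without overlap, at 139 ± 6.32 against 157 ± 8.95 CPM (adjusted p = 0.823, edgeR).

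Among the transcription factors, Satb1 was the best measured. This chromatin organiser, known for promoting lymphoid fate in stem and progenitor cells, had 5271, 4546 and 10551 reads against 2774, 1232 and 2503. That was 54.7, 43.4 and 84.9 CPM against 22.3, 13.9 and 21.7 CPM, without overlap. Its log2 fold change of -1.66 had the smallest standard error of the 8, 0.31, and stayed between -1.86 and -1.35 with any 1 library left out. Its level by replicate number was 40.8%, 32.1% and 25.6% of the Cre-negative one.

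Tcf7, a factor of early T cell specification, had 147, 0 and 1157 reads against 0, 140 and 0. Ebf1, which specifies B cells, had 320, 0 and 1753 reads against 0, 0 and 194. Both groups contained libraries without reads and the groups overlapped for each gene. Cre-negative replicate 3 held most of their reads, and without it the log2 fold change of Tcf7 went from -2.78 to -0.54 and that of Ebf1 from -3.37 to -1.57. Each also rested on 1 Cre-positive library: without replicate 2 Tcf7 was at -11.7, and without replicate 3 Ebf1 was at -12.3, again fitted against no reads. The standard errors of 2.87 and 2.75 were of the size of the changes.

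By the sign of the fold change, other lymphoid transcription factors mostly leaned lower, without passing the edgeR test. By summed TPM the list overlapped between groups, at 1271 to 1561 in Cre-negative and 1043 to 1846 in Cre-positive libraries. Of 27 looked up, 22 were tested, 18 of them with a negative log2 fold change (median -0.52), beside 6658 of all 13117 genes tested. By edgeR or limma-voom 0 passed over all genes. At an unadjusted p under 0.05, 6 were lower and 1 higher, beside 4.19% and 4.05% of all genes. The groups did not overlap for 6 lower and 1 higher, beside 7.66% and 7.53% of all genes. Mef2c, which favours lymphoid over myeloid fate, was at 160 ± 16.3 against 93.8 ± 14.1 CPM without overlap (SD, n = 3; adjusted p = 0.131, edgeR), and DESeq2 called it. Irf4, a factor of B cell differentiation, had 78, 554 and 563 reads against 0 in every Cre-positive library (adjusted p = 0.235, edgeR). DESeq2 called it too, where 1.68% of all genes were called lower. Irf4 passed the filter on low counts through its Cre-negative reads alone, which fixed its sign, so nothing is read from that call. Tcf12, an E protein, was higher without overlap, at 116 ± 19.0 against 158 ± 20.9 CPM (adjusted p = 0.433, edgeR). Ikzf3, Bcl11b and Spib had 0 counts throughout.

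**Figure D3:**
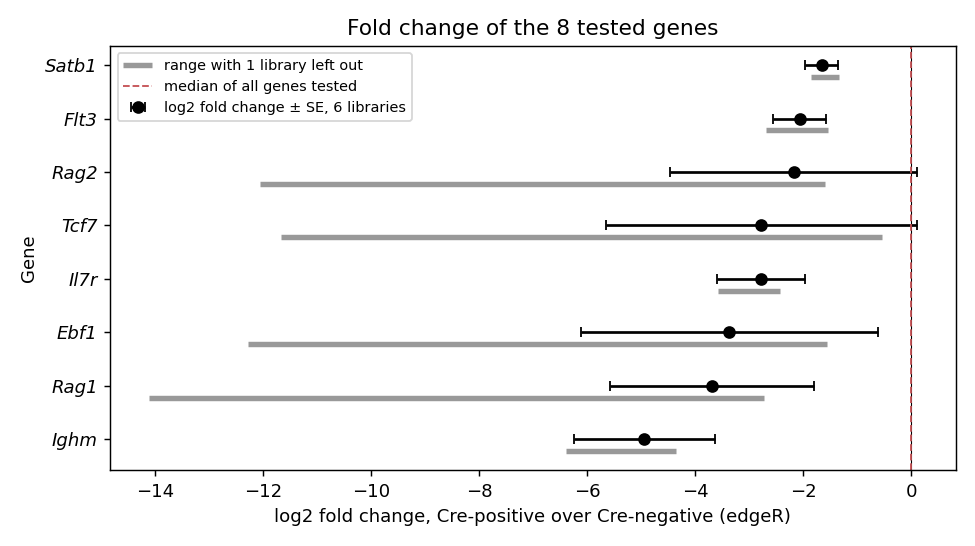
Log2 fold change with its standard error (points and black bars, horizontal axis) for the 8 tested genes, with the range when 1 library is left out in grey and the median of all genes tested as a dashed line. All 8 points lie below 0, and the ranges of Flt3, Il7r, Ighm and Satb1 are narrower than those of the other 4 genes.

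Over the 8 tested genes the median log2 fold change was -2.78, against -0.01 over all 13117 genes tested. By edgeR 0 of the 8 passed the adjusted threshold of 0.05, where 0% of all genes tested were called lower and 0.122% higher. By limma-voom 0 passed, and by DESeq2 2 did (Il7r and Satb1), where 1.68% of all genes were called lower. Without adjustment, 4 had p under 0.05 in edgeR and were lower (Flt3, Il7r, Ighm and Satb1), beside 4.19% of all genes lower and 4.05% higher. The groups did not overlap for 5, these 4 and Rag1, beside 7.66% of all genes lower and 7.53% higher. Since the genes were picked with this contrast known, nothing is read from these counts. Of the 10, 8 passed the filter on low counts, Tcf7 and Ebf1 with reads in 2 Cre-negative and 1 Cre-positive library each.

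TPM and reads did not always rank the libraries alike, because the length that scales TPM changed from library to library. For Ebf1 the deposited mean length was 530 bases in Cre-negative replicate 1 and 4446 bases in replicate 3. Replicate 1 therefore had the higher TPM (14.8 against 3.99) on fewer reads (320 against 1753). In GENCODE M21 the noncoding Ebf1 transcripts include lengths of 320, 349 and 673 bases, and the coding ones are 2864, 3422 and 5981 bases long. For Rag2 the length was that of Rag2-201 (3424 bases) in Cre-negative replicate 1 and that of Rag2-202 (1857 bases) in Cre-positive replicate 2. For Tcf7 it was 2059, 1126 and 813 bases in the 3 libraries with reads, and for Satb1 it ranged from 2290 to 4064 bases. With lengths taken into account as offsets, the log2 fold change was -4.64 for Ebf1, -1.42 for Rag2, -1.95 for Tcf7 and -1.86 for Satb1. That of Flt3 stayed at -2.07 and that of Il7r went to -2.79.

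**Figure D4:**
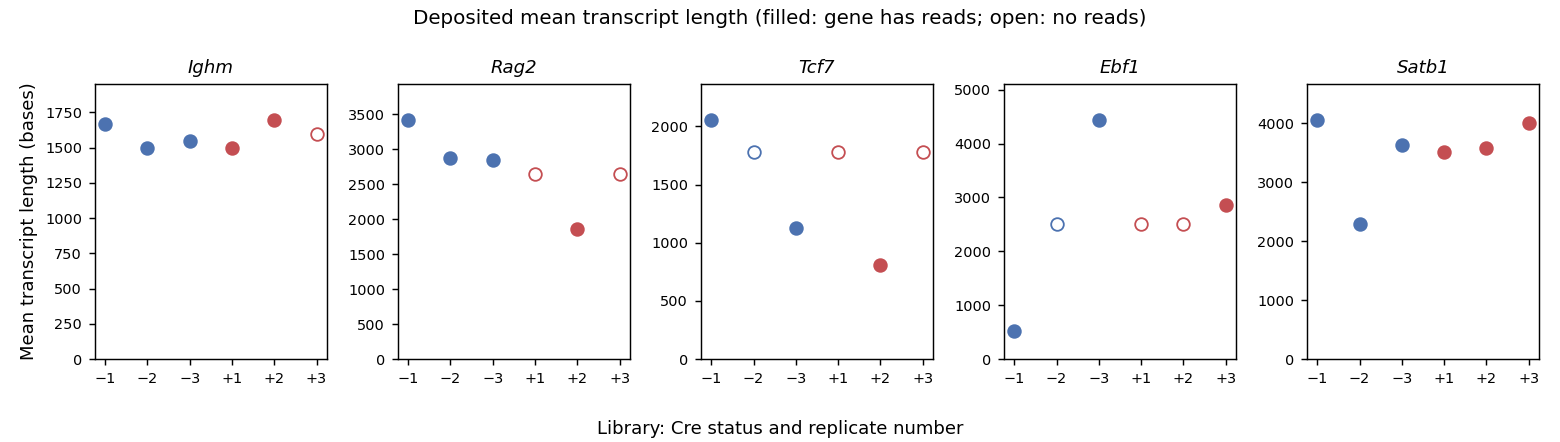
Deposited mean transcript length in bases (vertical axis, from 0) of 5 genes in each library (horizontal axis), filled where the gene has reads and open where it has none and the tables give a default. Ebf1 spans 530 to 4446 bases among libraries with reads, and Ighm sits at one of its 2 transcript lengths in 3 of 5 libraries with reads.

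Replicate 3 stood apart within the Cre-negative group. It was the highest Cre-negative library by CPM for all 8 genes, against 36.4% of all genes tested. Its level was 2.30 times the mean of replicates 1 and 2 for Flt3, 1.82 times for Il7r, 2.22 times for Ighm, 1.73 times for Satb1 and 3.87 times for Rag1. Without it the log2 ratio of summed TPM, Cre-positive over Cre-negative (difference of mean log2(TPM + 0.1)), went from -2.58 to -2.22. The same library was the highest Cre-negative one for 9 of 11 tested neutrophil and monocyte markers, 9 of 12 stem and multipotent progenitor markers, 10 of 12 lymphoid progenitor surface genes and 2 of 13 erythroid markers. Among Cre-positive libraries, replicate 3 was the highest for 4 of the 8 genes, against 35.0% of all genes tested. It was also the highest for 7 of the 11 neutrophil and monocyte markers and 8 of the 12 lymphoid progenitor surface genes. For the stem markers this was 10 of 12, and for the erythroid ones 0 of 13.

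Neutrophil and monocyte markers leaned the same way as the 10 genes, without passing the edgeR test. The summed TPM of 13 neutrophil and monocyte markers, 12 of them with reads, was 344 to 1000 in Cre-negative and 177 to 349 in Cre-positive libraries. Of the 11 tested, 10 had a negative log2 fold change (median -1.50). The groups did not overlap for 6, all lower, beside 7.66% of all genes lower. None passed over all genes by edgeR or limma-voom, and 5 were lower at an unadjusted p under 0.05, beside 4.19% of all genes. DESeq2 called Lyz2, Prtn3 and Spi1, genes of lysozyme, proteinase 3 and PU.1, beside 1.68% of all genes called lower. Mpo, the myeloperoxidase of granules, was at 912 ± 429 against 305 ± 152 CPM (SD, n = 3; adjusted p = 0.235, edgeR). Spi1, the factor PU.1 shared by myeloid and B cells, was at 34.0 ± 11.9 against 13.9 ± 2.55 CPM (adjusted p = 0.270, edgeR), and its log2 fold change of -1.29 became 0.01 with length offsets. Ly6c2 had 0 counts. The part of such cells in the lower lymphoid levels was not tested.

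Surface genes of lymphoid progenitors were less uniform. Of 17 looked up, 14 had reads and 12 were tested, with a median log2 fold change of -0.78 and 0 calls over all genes by edgeR, DESeq2 or limma-voom, while 1 was lower at an unadjusted p under 0.05. Lsp1, a leukocyte actin-binding protein gene, was at 67.6 ± 41.5 against 18.0 ± 7.44 CPM without overlap (adjusted p = 0.234, edgeR). By TPM its groups overlapped (70.5, 32.6 and 121 against 56.0, 26.8 and 25.1), and its log2 fold change of -1.91 became -1.01 with length offsets. Cd34, a surface protein of blood progenitors, was at 76.3 ± 48.1 against 42.3 ± 23.7 CPM, with overlap (adjusted p = 0.764, edgeR). Ly6d, which marks progenitors bound for the B lineage, had 0 counts in all 6 libraries, as did Cd2 and Il2ra.

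Several defining markers of finished lymphocytes had no reads in any library. Of 16 T and NK cell markers, 8 had no reads in any library, among them Cd3d, Cd3e, Cd8a, Zap70, Ptcra and Ncr1, and the list summed to 19.2 to 34.0 TPM in Cre-negative and 11.2 to 36.5 TPM in Cre-positive libraries. Its 2 tested genes with the smallest p were Cd4 and Nkg7. Cd4 had 70, 249 and 593 reads against 0 in each Cre-positive library (adjusted p = 0.278 by edgeR and 8.83e-05 by DESeq2). Cd4 passed the filter on low counts through its Cre-negative reads alone, so nothing is read from its DESeq2 call. Nkg7, a granule protein gene, was at 2.93 ± 2.52 against 0.730 ± 1.26 CPM. Of 11 mature B cell markers, Ms4a1, Cr2, Fcer2a, Igkc and H2-Aa had no reads, and the list summed to 9.91 to 39.6 against 5.46 to 15.9 TPM. Its 1 tested gene, H2-Ab1, was at 4.74 ± 0.737 against 5.46 ± 1.46 CPM, with a sign that turned with length offsets. Of 8 dendritic cell markers, Flt3 included, Xcr1 had no reads, and the list summed to 47.3 to 79.8 against 48.7 to 61.5 TPM. Ccr2, a chemokine receptor of monocytes and dendritic cells, was at 14.4 ± 8.67 against 0.793 ± 1.04 CPM without overlap (adjusted p = 0.466, edgeR).

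**Figure D5:**
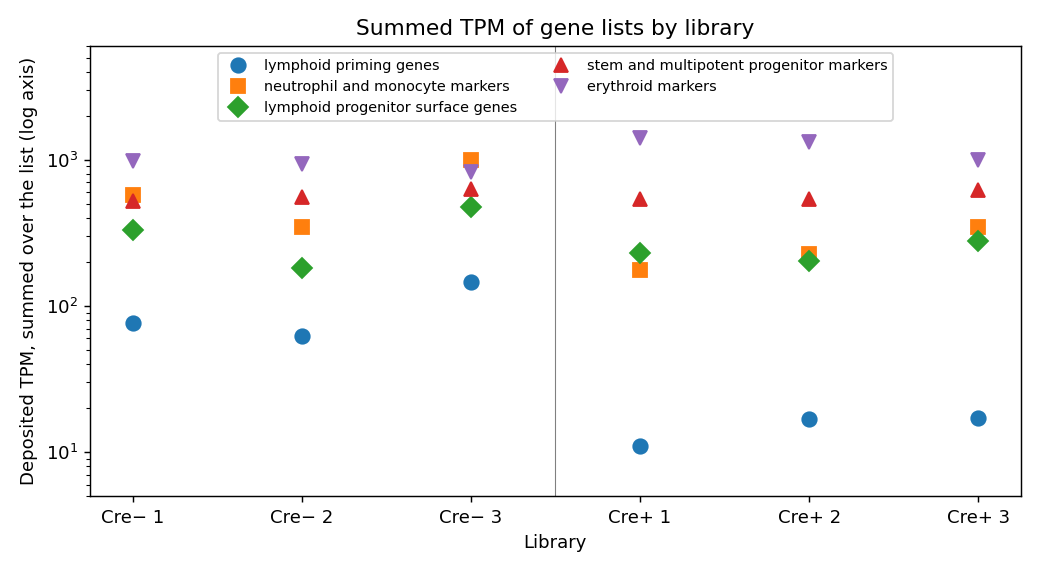
Summed deposited TPM (vertical axis, log scale) of the lymphoid priming genes and 4 other lists in each library (horizontal axis). The lymphoid sums span 62.0 to 145.7 in Cre-negative and 10.97 to 17.1 in Cre-positive libraries, while the stem and multipotent progenitor sums overlap (524 to 631 against 539 to 619).

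Stem and multipotent progenitor markers did not move with the lymphoid genes as a list. All 12 were tested, their median log2 fold change was -0.04, 0 passed over all genes by edgeR, DESeq2 or limma-voom, and 1 was lower at an unadjusted p under 0.05. That gene was Hmga2, a chromatin protein of fetal progenitors, at 152 ± 45.9 against 58.0 ± 27.1 CPM without overlap (SD, n = 3; adjusted p = 0.229, edgeR). Mllt3, a regulator of stem cell maintenance, was higher, narrowly without overlap, at 54.8 ± 8.66 against 76.0 ± 22.5 CPM (adjusted p = 0.669, edgeR). Erythroid markers summed to 819 to 975 TPM in Cre-negative and 995 to 1412 TPM in Cre-positive libraries. Of 13 tested, 1 rose over all genes by edgeR and by limma-voom, Car2, a carbonic anhydrase of red cells. It went from 226 ± 18.8 to 483 ± 67.3 CPM without overlap (adjusted p = 0.00787, edgeR). Its edgeR call was lost with length offsets (adjusted p = 0.0515) and without Cre-positive replicate 1 (0.0595) or 2 (0.0850), while its log2 fold change of 1.09 became 1.101, 1.006 and 1.063. Sptb, a membrane skeleton gene, was also higher without overlap, at 112 ± 28.0 against 228 ± 51.2 CPM. Its adjusted p was 0.184 by edgeR and 2.17e-06 by DESeq2, which called Car2 and Sptb. Macrophage and hepatocyte markers were near absent, with 2 of 8 and 3 of 8 genes having any reads, and with summed levels of at most 4.82 and 19.4 TPM. Their tested genes, Cd68 and Trf, were at 1.24 ± 2.15 against 0.838 ± 1.07 CPM and at 5.09 ± 2.51 against 2.51 ± 2.23 CPM.

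The genes whose pattern over the 6 libraries was most like the summed TPM of the 10 were Adgra2, Fam129a, Stc1, Zfp874b and Myo5a. The measure was the root mean square difference of centred log2(TPM + 0.1), over 12222 tested genes averaging 100 counts or more, and it was 0.28, 0.30, 0.31, 0.34 and 0.39 for the 5. Of these, Adgra2 (151, 179 and 372 reads) and Stc1 (193, 91 and 478 reads) had no reads in any Cre-positive library. Myo5a, an actin motor, had the most reads, with 31.6, 15.1 and 41.5 TPM against 4.89, 4.37 and 8.25 TPM. By CPM, which uses no transcript length, the groups overlapped for Myo5a, Fam129a and Zfp874b, with Cre-positive means at 54.8%, 60.3% and 55.0% of the Cre-negative ones.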

How the data were processed

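Total RNA of sorted BFU-E was sequenced in 6 samples, with libraries from the Takara SMARTer Stranded Total RNA-Seq Pico kit per the labels. STAR 2.5.3a and RSEM 1.3.0 on GRCm39 are named in the submitters' processing notes; no annotation release or strand setting is given there. Per the file headers, the authors deposited expected counts (reads assigned by a model), TPM, FPKM and transcript lengths per gene. Their TPM was used for levels between genes, and their FPKM was not used.

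Symbols matched 52081 of 55359 gene identifiers. Expected counts were rounded, genes were kept by filterByExpr (13117), and libraries were scaled by TMM. The groups were compared by the quasi-likelihood test of edgeR 4.0.16 (R 4.3.3) without a block. P-values were adjusted by Benjamini-Hochberg across the tested genes, at a threshold of 0.05. Standard errors are the fold change over the square root of F. DESeq2 1.42.0 and limma-voom (limma 3.58.1), 2 other scalings, no filter, length offsets, a block and leaving out each library were alternatives. The edgeR script was tested on simulated data.

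The 10 genes and all lists were chosen with earlier results of these data known. Named are the 10 genes, Exosc3 and eGFP as label checks, from each other list the 3 tested genes with the smallest p (2 for cell type markers), genes at 0 in every library, and the 5 with the most similar pattern; 1 gene that this rule names is not reported here. Other genes were named after their values were seen (Gata1, Klf1, Hbb-bt, Alas2, Vpreb2, Cd79b, Lyz2, Prtn3, B230118H07Rik). Separate animals are not stated beyond litters, so p-values measure the spread between these samples. Transcript names, lengths, overlaps and sequences come from GENCODE M21 (GRCm38), matched by identifier; coordinates are not given because the builds differ.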

Additional observations from a re-analysis of the deposited data

How the results depend on the processing

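All 8 tested lymphoid genes kept a negative log2 fold change under each of the 13 alternatives run. Their median of -2.78 moved most under limma-voom (-4.16) and with the replicate block (-5.62). With 1 library left out it ranged from -3.21 to -1.66, and the log2 ratio of summed TPM from -2.84 to -2.22, against -2.58 with all 6. That ratio was -2.51 with a pseudocount of 1 and -2.14 without Ighm. The count of all genes called, 16 higher and 0 lower by edgeR, was 235 and 218 by DESeq2, 33 and 6 without a filter, and 6 higher and 0 lower with length offsets. With 1 library left out it was 7 to 15 higher and 0 to 3 lower. Satb1 was among the lower calls without a filter (0.0355% of all genes called lower). Rag1 was so without Cre-positive replicate 3 (0.0217%), where the other Cre-positive libraries hold 0 reads. Ighm, with the lowest fold change by edgeR, was passed by Rag1 under limma-voom (-8.42 against -7.39) and by Rag1, Rag2 and Tcf7 with the block. The replicate block gave 38 higher and 18 lower, with Flt3 and Satb1 among the lower, where 0.137% of all genes were called lower. It also called Mpo, Hmga2, Plcg2, Lsp1 and Mef2c lower (adjusted p = 0.000868 to 0.0449, edgeR) and Sptb higher (0.00739). Same-numbered libraries shared deviations only weakly (correlations of 0.026, 0.0534 and 0.0725 across 13117 genes), though each library correlated best with its own number. The numbers were not used as pairs because no label says that they mark litters. Whether they do is not known, so the block calls stand as an alternative. Among the other named genes, signs turned for Cd68 (2.05 by limma-voom, 1.07 with the block, -2.40 to 9.47 with 1 library left out), H2-Ab1 (-0.24 with length offsets, -0.034 to 0.335 with 1 library left out) and Spi1 (0.0093 with length offsets). The causes were not tested. Rag1, Rag2, Tcf7 and Ebf1 each have reads in 1 Cre-positive library only. In the others, a level too low to give reads at this depth cannot be told from none. For Rag1 the Cre-negative libraries held 7.90 to 41.01 CPM, far above the 0.0241 to 0.0339 CPM that a count of 0 allows.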
